A study of Mus musculus with 6 samples.

Results

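The PI3K, Akt and Foxo pathway regulators are a set of 9 genes, namely Phlpp1, Inpp5d, Inpp4b, Pik3cd, Pik3r1, Pik3ip1, Akt1, Foxo1 and Foxo3. They were followed in mouse regulatory T (Treg) cells by the probe sets annotated to exactly 1 of these symbols. Such probe sets were found for 7 of the 9 genes, out of 12394 genes measured, and Inpp4b and Pik3ip1 were not analysed here. The 7 genes had 18 probe sets among 22690, and the probe set with the highest mean over all arrays stood for each gene. The set was selected on measured values: Phlpp1 was chosen by its difference between the groups, and the other members were picked with values of the same comparison known. The differences of the members are therefore given as a description, without p values.

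CD4+CD25+YFP+ Treg cells came from the spleen and lymph nodes of mice that carry a YFP-Cre recombinase at the Foxp3 locus. The Cre is expressed with Foxp3, and it removes a loxP-flanked (F) part of Gata3, a transcription factor gene of T cells. Gata3 F/F Foxp3 YFP-Cre mice gave the 3 arrays labelled Gata3-deficient, and Gata3 F/+ Foxp3 YFP-Cre mice gave the 3 arrays labelled Gata3-sufficient, which are titled WT but have 1 floxed allele and the Cre. The design text gives 3 mice in each group, and it does not state the age of the mice or which part of Gata3 is floxed. All values are RMA log2 intensities of Affymetrix arrays, and every difference is the mean of the arrays labelled Gata3-deficient minus the mean of those labelled Gata3-sufficient.

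Phosphoinositide 3-kinase (PI3K) is activated below the T cell receptor, CD28 and cytokine receptors and makes a membrane lipid that recruits the kinase Akt. Akt phosphorylates the transcription factors Foxo1 and Foxo3, which then leave the nucleus, so that their target genes, several of them genes of resting T cells, are less expressed. Lipid phosphatases such as the product of Inpp5d act on the lipid, and the PHLPP phosphatases remove an activating phosphate from Akt itself. Treg cells are known to keep Akt activity low and to depend on Foxo1 for their function.

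The arrays were even in level, with medians between 6.06 and 6.11. The single Gata3 probe set read higher in the arrays labelled Gata3-deficient (9.84 ± 0.14 against 9.48 ± 0.08, SD, n = 3 each). It therefore gave no check of the deletion, and each direction below rests on the labels. Of the Treg and CD4 T cell markers, Cd4, Cd3e, Cd3g, Il2ra, Ctla4, Ikzf2 and Tnfrsf18 were not dim, where dim means a mean below the 40th percentile of all probe sets (5.25), and Foxp3 was dim in all 6 arrays (3.82 to 4.06). In bulk RNA, a smaller share of cells with a transcript and less transcript per cell cannot be told apart.

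The windows from 250 bases before to 50 bases after the annotated start are shown for Phlpp1, the member with the largest difference, for Foxo1, which was lower on several probe sets, and for Akt1, which was higher. The sequences come from RefSeq (GRCm38.p6), and capitals mark matches to the GATA motif (AGATAA with its variant form AGATAG, or TGATAA with its variant form TGATAG) or to the Foxo motif (GTAAACA), searched on both strands.
Phlpp1 (chr1:106171619-106171918, plus strand): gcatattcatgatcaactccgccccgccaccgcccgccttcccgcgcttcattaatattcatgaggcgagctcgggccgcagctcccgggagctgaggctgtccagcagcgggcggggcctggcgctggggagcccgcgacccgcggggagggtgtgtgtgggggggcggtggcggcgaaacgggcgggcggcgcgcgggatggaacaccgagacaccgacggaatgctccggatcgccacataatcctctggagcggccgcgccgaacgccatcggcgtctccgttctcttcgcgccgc
Foxo1 (chr3:52268087-52268386, plus strand): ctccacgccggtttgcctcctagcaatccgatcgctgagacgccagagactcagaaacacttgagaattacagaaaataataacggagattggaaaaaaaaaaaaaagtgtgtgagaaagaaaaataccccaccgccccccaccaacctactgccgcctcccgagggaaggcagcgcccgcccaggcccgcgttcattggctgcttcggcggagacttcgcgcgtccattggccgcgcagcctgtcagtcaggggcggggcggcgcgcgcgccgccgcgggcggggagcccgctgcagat
Akt1 (chr12:112674835-112675134, minus strand, the upstream of 2 annotated starts): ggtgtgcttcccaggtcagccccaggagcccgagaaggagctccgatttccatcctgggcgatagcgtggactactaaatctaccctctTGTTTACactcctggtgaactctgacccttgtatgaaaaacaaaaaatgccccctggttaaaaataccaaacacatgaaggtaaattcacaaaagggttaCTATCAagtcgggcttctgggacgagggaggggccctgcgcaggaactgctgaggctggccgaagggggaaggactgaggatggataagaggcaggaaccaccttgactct
The Phlpp1 and Foxo1 windows held no match to either motif. The Akt1 window held 1 match to the Foxo motif, TGTTTAC at -161 from the start site, and 1 match to the GATA motif, CTATCA at -61, both on the opposite strand, and the second Akt1 window held none. Among 32851 windows of this length in the table, 29.8% held at least 1 GATA match and 3.65% held the Foxo match. Foxo3, Inpp4b and Pik3ip1 had no match in their windows. Inpp5d had the GATA match TGATAA at -156, 2 of the 3 Pik3cd windows had 1 GATA match each, and 1 of the 2 Pik3r1 windows had a pair of GATA matches, at -95 and -46. The GATA and Foxo matches did not overlap. The windows shown were GC-rich for Phlpp1 (70.7%) and Foxo1 (61.3%) and close to the median of all windows (52.7%) for Akt1 (52.3%). The second Akt1 window, which is not shown, was GC-rich (79.7%). A match describes letters in the reference and was not tested as a binding site.

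Phlpp1, which encodes the phosphatase that acts on Akt, showed the largest difference of the set. Its only probe set (1426994_at) read 8.55, 7.97 and 7.92 in the Gata3-sufficient arrays and 7.21, 7.21 and 7.55 in the Gata3-deficient arrays. Every Gata3-deficient array was below every Gata3-sufficient array, and the nearest arrays of the groups were 0.37 apart. The spread was wide in the Gata3-sufficient group because replicate 1 stood above the other two. Its means were 8.15 ± 0.35 and 7.32 ± 0.20 (SD over 3 arrays each), which gives a log2 difference of -0.82 ± 0.16 (limma SE), or 1.77-fold lower. Among all 12394 genes this was the 14th lowest difference. The difference is the reason the gene was chosen, and with 1 probe set no second reading of Phlpp1 was at hand.

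Of the 7 members, 1 (Phlpp1) was past an adjusted p of 0.05 in the limma fit over all genes, where 2.21% of all genes were past it and 0.766% were past it and lower, and nothing is read from this count. The call was not kept in 3 of the 6 fits with 1 array left out, namely without Gata3-sufficient replicate 2 (difference -0.91), Gata3-deficient replicate 1 (-0.77) or Gata3-deficient replicate 2 (-0.76). It was also not kept in the fit without limma's intensity trend. Without Gata3-sufficient replicate 1, the highest array, the Phlpp1 difference was -0.62. In all 6 of these fits the difference lay between -0.94 and -0.62.

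**Figure D1:**
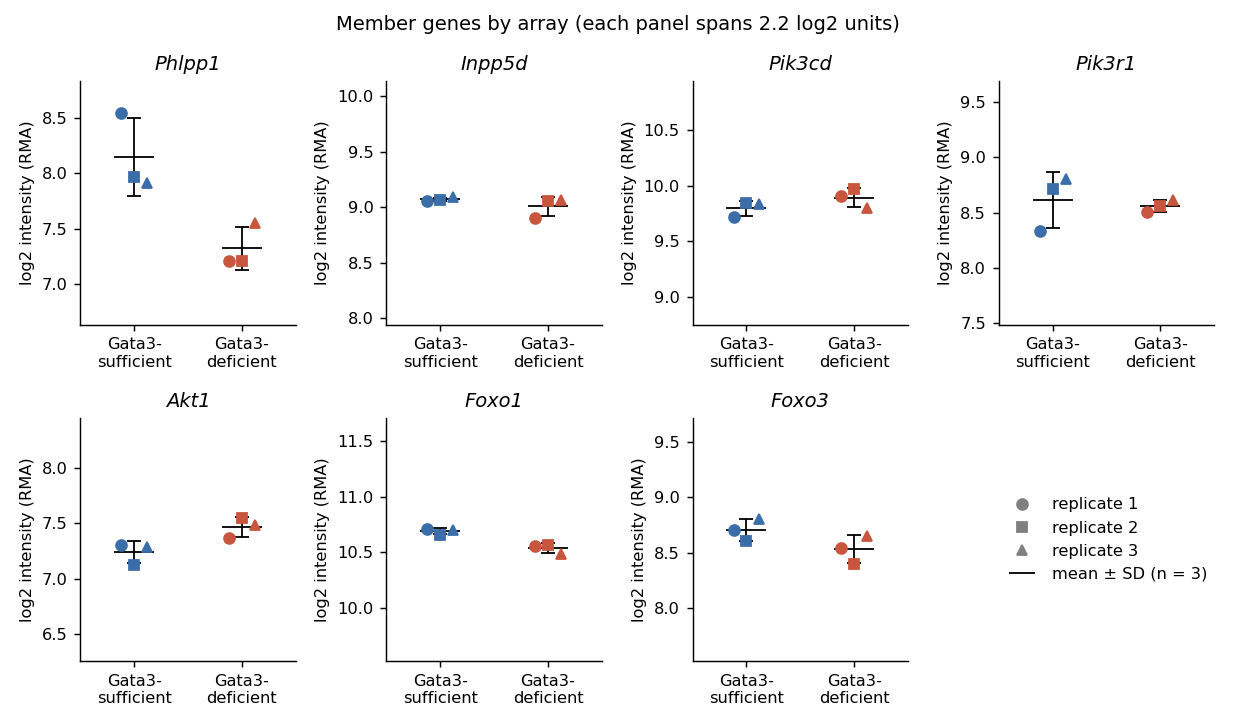
RMA log2 intensity of the 7 members on each array, with 1 panel per gene, circles, squares and triangles for replicates 1, 2 and 3, and the mean and SD of 3 arrays in black. Each panel spans the same range of log2 units, and Phlpp1 has the widest distance between the groups (8.15 against 7.32).

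On their brightest probe sets, the lipid kinase subunits differed little between the groups. Pik3cd encodes the delta catalytic subunit, the main PI3K catalytic subunit of lymphocytes. It read 9.72, 9.84 and 9.83 in the Gata3-sufficient and 9.91, 9.97 and 9.80 in the Gata3-deficient arrays. The groups overlapped, and the difference was 0.09 ± 0.06 (SE). A second probe set of Pik3cd (1422992_s_at) went the other way, from 6.97, 6.92 and 6.78 to 6.59, 6.82 and 6.71, a difference of -0.18 ± 0.09, also with overlap. The direction for Pik3cd thus depends on the probe set, and its dim probe set differed by -0.03 ± 0.11.

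Pik3r1 encodes the regulatory subunit alpha, which stabilises the catalytic subunit and holds it inactive until a receptor recruits it. Its brightest probe set (1425514_at) read 8.33, 8.71 and 8.80 in the Gata3-sufficient and 8.50, 8.56 and 8.61 in the Gata3-deficient arrays. Gata3-sufficient replicate 1 was the lowest of the 6 arrays and the others of its group were the highest, so the groups overlapped. The difference was -0.06 ± 0.11 (SE), and it was 0.04 without Gata3-sufficient replicate 3 or -0.20 without replicate 1 of that group. The other Pik3r1 probe sets had less spread and were lower in every Gata3-deficient array. The probe set 1425515_at read 8.32, 8.47 and 8.43 against 8.13, 8.22 and 8.26 (difference -0.20 ± 0.06), and 1451737_at read 7.995, 8.003 and 8.12 against 7.96, 7.98 and 7.94 (-0.08 ± 0.06).

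Inpp5d encodes SHIP-1, a phosphatase of blood cells that removes a phosphate from the lipid product of PI3K. It read 9.06, 9.07 and 9.09 in the Gata3-sufficient and 8.91, 9.05 and 9.06 in the Gata3-deficient arrays. Gata3-deficient replicate 1 was the lowest array, and replicate 3 of that group lay within the range of the Gata3-sufficient arrays, so the groups overlapped. The difference was -0.06 ± 0.05 (SE), and that of the second Inpp5d probe set (1424195_a_at) was 0.01 ± 0.10.

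Akt1, which encodes the Akt kinase form found in most tissues, was the one member above the Gata3-sufficient range in all Gata3-deficient arrays. It read 7.30, 7.13 and 7.29 in the Gata3-sufficient and 7.37, 7.54 and 7.48 in the Gata3-deficient arrays. The groups did not overlap, but their nearest arrays were only 0.07 apart. The difference was 0.23 ± 0.08 (SE), or 1.17-fold. The other Akt1 probe set (1425711_a_at) was dim and overlapped, with a difference of -0.06 ± 0.10. Over all genes, 11.3% had every Gata3-deficient array above every Gata3-sufficient array.

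Foxo1, the main Foxo transcription factor of T cells, was lower by a small amount on each probe set that was not dim. The brightest (1416983_s_at) read 10.71, 10.66 and 10.70 in the Gata3-sufficient and 10.56, 10.57 and 10.49 in the Gata3-deficient arrays. The groups did not overlap, and the difference was -0.15 ± 0.04 (SE), or 1.11-fold lower. The probe set 1416981_at read 9.20, 9.18 and 9.18 against 9.08, 9.14 and 8.99 (difference -0.12 ± 0.05). The probe set 1416982_at read 8.57, 8.60 and 8.56 against 8.42, 8.37 and 8.40 (-0.17 ± 0.05). All 3 probe sets had every Gata3-deficient array below every Gata3-sufficient array, and the dim probe set (1456529_at) overlapped, with a difference of 0.01 ± 0.10. These probe sets read the same RNA samples, so they are not independent replicates.

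Foxo3, a second Foxo factor with overlapping target genes, read 8.71, 8.61 and 8.80 in the Gata3-sufficient and 8.55, 8.40 and 8.65 in the Gata3-deficient arrays. Gata3-deficient replicate 3 lay above the lowest Gata3-sufficient array, so the groups overlapped, and the difference was -0.17 ± 0.07 (SE). The next probe set (1434832_at) did not overlap, at 7.73, 7.66 and 7.78 against 7.42, 7.55 and 7.64, with a difference of -0.19 ± 0.07. The dim Foxo3 probe set differed by -0.04 ± 0.10.

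**Figure D2:**
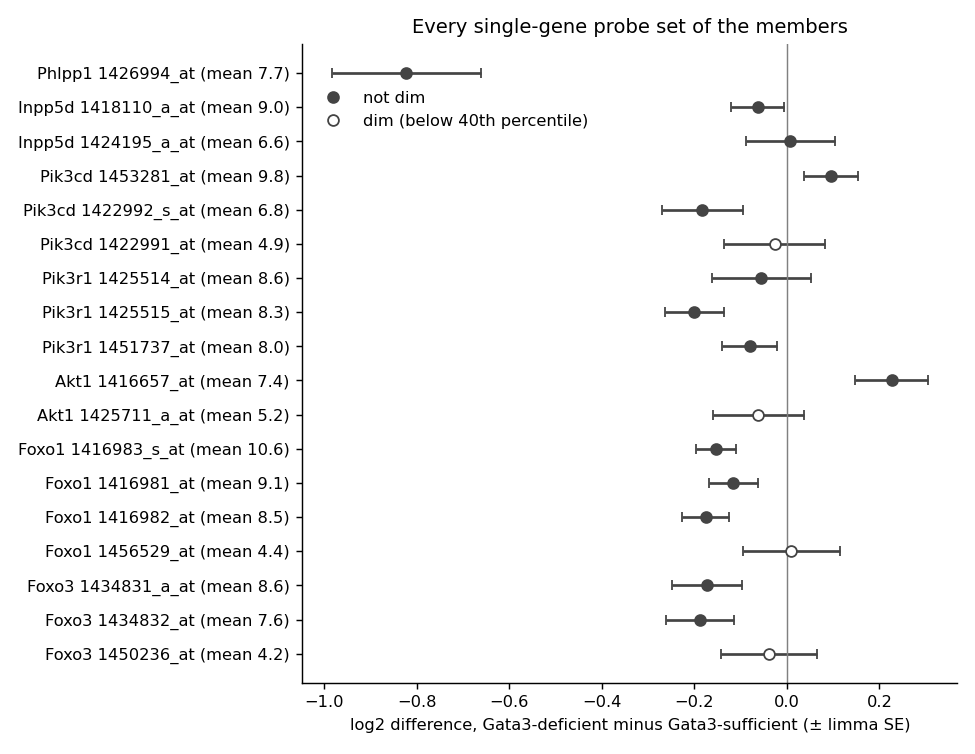
Log2 difference (Gata3-deficient minus Gata3-sufficient, with limma's SE) of all 18 probe sets of the members, with dim probe sets as open circles and the mean log2 intensity beside each name. Of the 14 probe sets that were not dim, 7 had every Gata3-deficient array lower and 1 had every one higher, and the 4 dim ones lay near 0.

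In sum over genes, 5 of the 7 members had a negative difference, and the median difference was -0.06, beside a median of 0.01 over all 12394 genes. Phlpp1 and Foxo1 had every Gata3-deficient array lower, where 8.51% of all genes did. Apart from Phlpp1 the members' differences were 0.06 to 0.23 in size, where the median size over all genes was 0.08 and the 90th percentile was 0.23. Over probe sets that were not dim, every Gata3-deficient array was lower in 7 of 14 for the members and in 11.5% of all, and higher in 1 of 14 and in 12.9% of all. Probe sets of 1 gene share their source, and the 7 came from Phlpp1, Foxo1 (3), Pik3r1 (2) and Foxo3.

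Within the groups the members did not vary together as a block. As a description over 6 arrays that share the 2 groups, Pearson's r with Phlpp1 was 0.78 for Foxo1, 0.70 for Foxo3, 0.51 for Inpp5d, -0.21 for Pik3r1, -0.62 for Akt1 and -0.87 for Pik3cd. For deviations from the group means, r with Phlpp1 was -0.14 for Foxo1, 0.28 for Foxo3, 0.13 for Inpp5d, 0.37 for Akt1, -0.76 for Pik3r1 and -0.90 for Pik3cd. Gata3-sufficient replicate 1, which was highest for Phlpp1 (0.40 above its group mean), was the lowest of its group for Pik3r1 (-0.28) and Pik3cd (-0.08).

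Among 7773 genes that were not dim, Pex6, Slc39a7, Pi4ka, Arhgap18 and Nck1 had the patterns most like that of Phlpp1 over the 6 arrays, with Pearson's r from 0.987 to 0.994. Pi4ka encodes a kinase that makes a precursor of the PI3K substrate, Nck1 an adaptor of T cell receptor signalling, Pex6 a peroxisome assembly factor, and Slc39a7 a zinc transporter. Their differences were smaller than that of Phlpp1, from -0.31 (Pex6) to -0.12 (Pi4ka). The most opposite patterns were those of Rex1bd, Lsm8, an RNA-binding protein gene, and Rps26, a ribosomal protein gene, with r of -0.994, -0.987 and -0.978. These genes were ranked by likeness alone, and r is given as a description.

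Markers of proliferating cells, of Treg and CD4 T cells and of other leukocytes were read in the same arrays. All 6 proliferation markers were higher in the Gata3-deficient arrays and passed in limma (Aurkb on a dim probe set). Over all 12394 genes, 179 passed and were higher. The proliferation markers had mean levels of 6.05 to 6.43 in the Gata3-sufficient and 6.80 to 6.99 in the Gata3-deficient arrays. Of the 8 myeloid markers 7 had a positive difference and 0 passed in limma, with 4 higher at an unadjusted p under 0.05, where 8.63% of all genes were higher at that p. Their mean levels were 5.03 to 5.22 in the Gata3-sufficient arrays and 5.24, 5.66 and 5.93 in Gata3-deficient replicates 1, 2 and 3, and S100a8, Itgam and Cd14 were dim. The 8 Treg and CD4 T cell markers all had a positive difference and 0 passed in limma, with 4 higher at an unadjusted p under 0.05. Their mean levels were 8.89 to 9.02 against 9.03 to 9.10. The 5 B cell markers (5.17 to 5.24 against 5.003 to 5.21; Cd79a, Pax5 and Blk dim) and the 4 CD8 T and NK cell markers (5.98 to 6.14 against 6.06 to 6.13; Cd8a and Ncr1 dim) overlapped. When each array was left out in turn, Top2a kept its call in 6 of 6 fits and the other proliferation markers in 1 to 4. In the other settings with all arrays, Top2a kept it in 10 of 10, and Birc5, Ccnb2 and Mki67 in 9 of 10. Rrm2 kept it in 6 of 10 and Aurkb in 4 of the 8 that held it. All but Top2a lost it without the intensity trend. The part of proliferating cells and of other leukocytes in the differences of the members and of the pathway lists below was not tested.

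**Figure D3:**
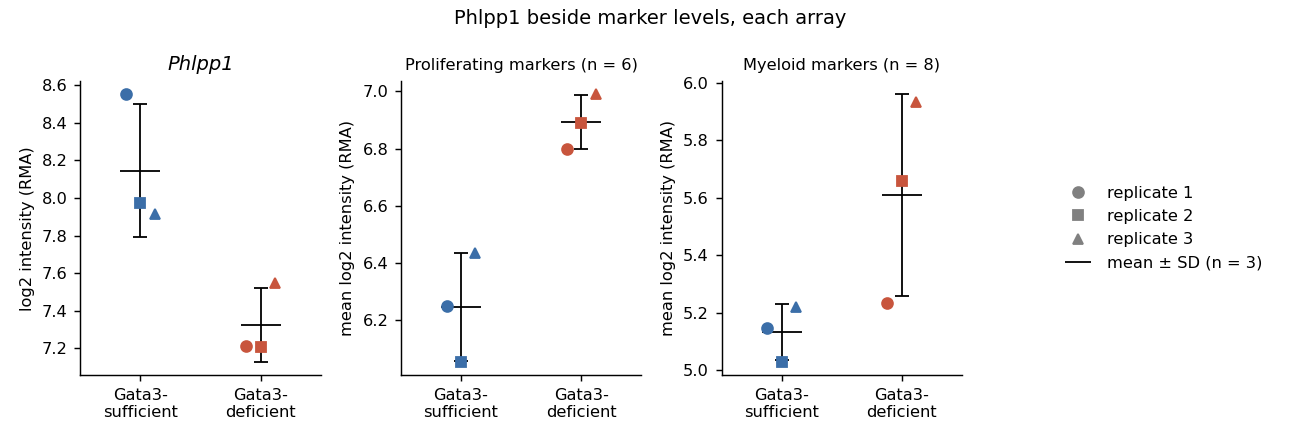
RMA log2 intensity of Phlpp1 and the mean log2 intensity of 6 proliferation markers and of 8 myeloid markers on each array, with replicates as circles, squares and triangles and the mean and SD of 3 arrays in black. The proliferation markers separate the groups (up to 6.43 against 6.80 and above), and the myeloid level varies among the Gata3-deficient arrays (5.24 to 5.93). Vertical scales differ between panels.

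The other genes of the pathway were read in 6 lists by role, and 1 of the 85 genes measured (of 105 listed), the Foxo target Il7r, passed the threshold, beside 2.21% of all genes. Adjusted p values in these lists are taken over all 12394 genes (Benjamini-Hochberg). The counts at an unadjusted p under 0.05 stand beside 8.63% of all genes higher and 5.8% lower at that p. Of the other PI3K subunits 0 of 6 passed in limma, with 1 lower at an unadjusted p under 0.05 and a median difference of 0.02. Pik3c3, the class III lipid kinase of autophagy and endosomes, had the smallest p (-0.20 ± 0.09, SE, limma adjusted p = 0.33). Pik3c2a, a class II enzyme (0.10 ± 0.06), and Pik3r2, the regulatory subunit beta (0.15 ± 0.13), followed. The alpha and gamma catalytic subunit genes Pik3ca and Pik3cg had differences of -0.06 ± 0.06 and 0.02 ± 0.07.

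Of the other phosphoinositide phosphatases 0 of 8 passed in limma, and 0 had an unadjusted p under 0.05 (median -0.05). Inpp5b (0.10 ± 0.05, SE), Inpp5e (-0.11 ± 0.07) and Inpp4a, the relative of Inpp4b (-0.09 ± 0.07), had the smallest p. Inppl1, which encodes the SHIP-1 relative SHIP-2, differed by 0.05 ± 0.07.

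Of the other Akt kinases and of the kinases and phosphatases around Akt 0 of 16 passed in limma, with an unadjusted p under 0.05 for 3 genes (2 higher and 1 lower), beside 8.63% and 5.8% of all genes, and a median of 0.01. Sgk1, a kinase related to Akt that also phosphorylates Foxo factors, read 8.67, 8.81 and 8.71 in the Gata3-sufficient and 8.90, 9.07 and 8.96 in the Gata3-deficient arrays. Its groups did not overlap, and the difference of 0.25 ± 0.06 (SE) did not pass (limma adjusted p = 0.0818). Ppp2cb, a catalytic subunit of the phosphatase PP2A, which also acts on Akt, had 0.19 ± 0.06, and the chaperone gene Hsp90aa1 had -0.25 ± 0.09. Akt2, the second Akt gene, differed by -0.08 ± 0.06, and Pdpk1, the kinase that activates Akt, by 0.03 ± 0.06.

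Of the mTOR complex genes and Akt substrates 0 of 15 passed in limma, with 1 lower at an unadjusted p under 0.05 and a median of -0.07. Tsc1, a brake on mTOR that works with the Akt substrate Tsc2, had -0.13 ± 0.05 (SE, limma adjusted p = 0.28). Mlst8, a subunit of both mTOR complexes (-0.16 ± 0.08), and Mdm2, a ubiquitin ligase and Akt substrate (-0.13 ± 0.08), followed. Foxo4, the third Foxo factor read here, differed by -0.09 ± 0.12.

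Of the Foxo target genes of T cells 1 of 21 passed in limma as lower and 0 as higher, beside 2.21% of all genes in either direction. In sign, 13 differences were negative and 8 positive. At an unadjusted p under 0.05 there were 8 lower and 4 higher, beside 5.8% and 8.63% of all genes, and the median was -0.10, beside 0.01 over all genes. In 9 genes every Gata3-deficient array was lower and in 4 every one was higher, where 8.51% and 11.3% of all genes did so. The list was chosen with earlier results of these data known, so these counts are given as a description. Il7r, the interleukin 7 receptor alpha chain of resting T cells, fell from 11.73, 11.48 and 11.67 in the Gata3-sufficient to 10.11, 10.52 and 11.01 in the Gata3-deficient arrays (-1.08 ± 0.18, SE, limma adjusted p = 0.0184). Its second probe set read 10.20, 10.08 and 10.28 against 8.60, 8.99 and 9.38, a difference of -1.19 ± 0.16. The Il7r decrease was known when the list was written and is no independent evidence for it. The call was lost in 3 of 6 fits with 1 array left out, without Gata3-sufficient replicate 2 or 3 or Gata3-deficient replicate 2 (differences -1.15, -1.06 and -1.06, limma adjusted p up to 0.0804), and also without the intensity trend (0.0954) or with robust variance estimation (0.13).

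The next Foxo targets went both ways. Sod2, the mitochondrial superoxide dismutase gene, read 9.01, 8.89 and 9.02 against 9.16, 9.25 and 9.30 (0.26 ± 0.06, SE, limma adjusted p = 0.0516). Gadd45a, a growth arrest and DNA damage gene, read 7.46, 7.30 and 7.004 against 6.68, 6.79 and 6.81 (-0.50 ± 0.11, limma adjusted p = 0.0525). In both the groups did not overlap, and of the 10 other settings with all arrays Sod2 passed in 6 and Gadd45a in 5. The Sod2 difference was -0.0050 with its most variable probe set, which is dim.

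Further targets were singled out after their values were seen, as the ones best known for Foxo1 in T cells. S1pr1, the receptor for exit from lymphoid organs, had a difference of -0.25 ± 0.07 (SE) and did not overlap. Klf2, the transcription factor of that exit programme, had -0.08 ± 0.05, and the homing receptor gene Ccr7 had 0.24 ± 0.10, both with overlap. The stress response genes Sesn1 and Sesn3 had -0.27 ± 0.07 and -0.20 ± 0.05, and the cell cycle inhibitor gene Cdkn1b had -0.10 ± 0.06. Ctla4, an inhibitory receptor of Treg cells that Foxo factors are known to support, had 0.22 ± 0.05, and Txnip, a regulator of glucose uptake, 0.32 ± 0.10. None of these passed in limma (adjusted p from 0.0531 to 0.51).

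**Figure D4:**
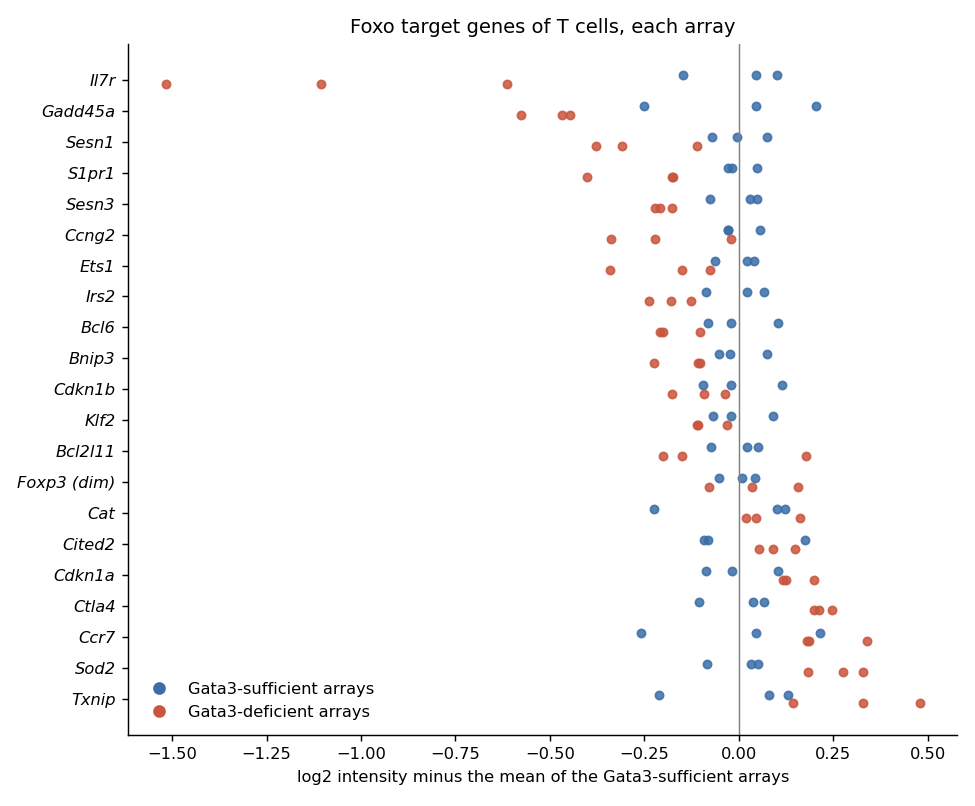
Log2 intensity of 21 Foxo target genes on each array, as the distance from the mean of the Gata3-sufficient arrays, blue for Gata3-sufficient and red for Gata3-deficient arrays. Il7r has the largest distance (-1.08 on average), and 9 genes have all Gata3-deficient arrays lower and 4 all higher.

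Of the receptors and adaptors upstream of PI3K 0 of 19 passed in limma, with an unadjusted p under 0.05 for 5 genes (3 higher and 2 lower), beside 8.63% and 5.8% of all genes, and a median of -0.03. The costimulatory receptors Icos and Cd28, which both bind PI3K, differed in opposite directions. Icos read 10.26, 10.02 and 10.38 against 10.68, 10.50 and 10.51 (0.35 ± 0.09, SE, limma adjusted p = 0.0831), and its second probe set had 0.32 ± 0.07. Cd28 read 10.80, 10.75 and 10.74 against 10.40, 10.66 and 10.58 (-0.22 ± 0.06, limma adjusted p = 0.11), and its second probe set had -0.14 ± 0.05. In both genes the groups did not overlap on either probe set. Trat1, an adaptor of the T cell receptor complex that binds PI3K, read 9.44, 9.82 and 9.63 against 10.02, 9.96 and 9.98 (0.36 ± 0.08, limma adjusted p = 0.0616).

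**Figure D5:**
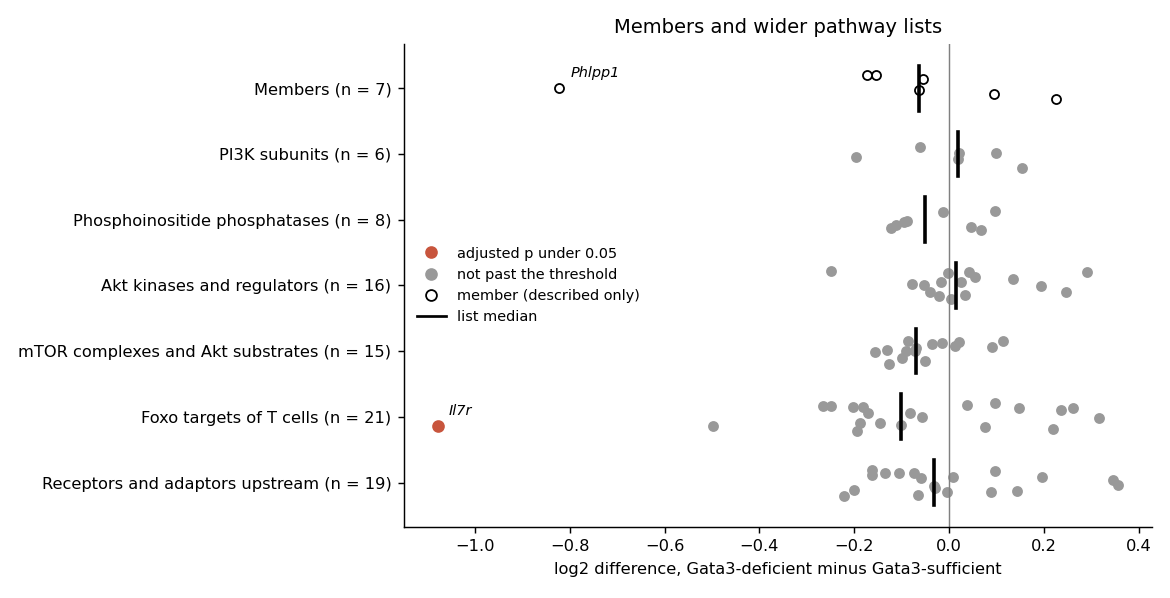
Log2 differences of the 7 members and of the measured genes of 6 wider pathway lists, 1 point per gene, with list medians as black bars, members as open circles and genes past an adjusted p of 0.05 in red. Il7r is the only gene of the 6 lists past the threshold, and the list medians lie between -0.10 and 0.02.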

How the data were processed

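Gene expression was read from 6 Affymetrix arrays, 3 for each of the 2 groups, which were taken from the array titles. The authors deposited 1 log2 intensity for each of 22690 probe sets, summarised by RMA per the submitters' processing notes (version not given in the sources used here). The log2 scale was read from the values (2.37 to 14.38). Scanner files, background levels and hybridisation batches were not used here.

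Probe sets were named through the platform annotation (20393 with 1 gene, 691 with several, 1606 not listed), and the probe set with the highest mean stood for each of 12394 genes. Groups were compared with limma 3.58.1 in R 4.3.3 (lmFit, eBayes with an intensity trend, two-sided, Benjamini-Hochberg over all genes, threshold 0.05), without a filter on dim probe sets. The procedure was checked on simulated data, only for added differences larger in size than that of any member. With 3 arrays a group, the smallest p of an exact permutation test is 0.1. Errors are SDs over 3 arrays or limma's SE. Whether each array is 1 mouse is not stated, so p values measure only the spread between these arrays.

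The members and gene lists were chosen with earlier results of these data known. Genes named were the members, Gata3, genes of each list past the threshold or the 3 with the smallest p, the markers, and the genes most and least like Phlpp1 (5 and 3, predicted genes passed over). A few others were named after their values were seen, for their known role or, for Ppp2r5c, because its probe sets differed. All 9 members matched the RefSeq promoter table. Protein sequences were not used here. Arrays were not paired by replicate number in the main fit. Deviations of arrays with the same number had correlations of 0.04, -0.02 and 0.07, which cannot decide whether the arrays were paired. Plots were made with matplotlib 3.10.9 (Python 3.11.15).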

Additional observations from a re-analysis of the deposited data

How the results depend on the processing

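The settings tried were a replicate block, a fit without the intensity trend, robust variance, dim probe sets left out, renewed quantile normalization, median centring, array weights, the mean or the most variable of a gene's probe sets, no probe sets with _x_ or _s_ in the name, and each array left out. The 274 genes past the threshold became 54 without the trend, 585 with array weights and 62 to 270 with 1 array left out. With the replicate block there were 368, and Phlpp1 stayed the only member past the threshold. The count of members past it was 1, but 0 without the trend, 2 with array weights (Phlpp1 and Akt1) and 0 to 1 with 1 array left out. The members were chosen with the values of this comparison known, so nothing is read from these counts of members. The Phlpp1 difference lay between -0.83 and -0.75 under the settings with all arrays. The choice of probe set moved Akt1, Foxo1, Inpp5d and Pik3cd by more than the SD of replicates pooled over the groups, and Foxo3 and Pik3r1 by less. With the mean of all probe sets the differences were 0.082 for Akt1, -0.11 for Foxo1 and -0.038 for Pik3cd. With the most variable probe set they were 0.0091 for Foxo1 (a dim probe set), 0.0078 for Inpp5d and -0.18 for Pik3cd. Renewed normalization and centring left the median of all genes at 0.01. Of the genes named beside the members, Gata3, the 3 or fewer leading genes of each pathway list and the proliferation markers were run under these settings, and none of them changed sign in a setting where it passed. With 1 array left out, Hsp90aa1 (-0.37, without Gata3-sufficient replicate 1), Gadd45a (-0.62, without Gata3-sufficient replicate 3), Sod2 (0.30, without Gata3-deficient replicate 1) and Trat1 (0.45, without Gata3-sufficient replicate 2) passed. Icos, Sgk1, Sod2 and Trat1 passed with the replicate block, and Icos, Sgk1, Sod2 and Gadd45a with array weights. Sod2 and Gadd45a also passed with robust variance, without dim probe sets, with renewed normalization and with centring. With 3 arrays a group, precision is limited throughout.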
